A study of Mus musculus with 19 samples.

Results

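H19 and 8 further imprinted genes that bear on growth (Dlk1, Peg3, Grb10, Mest, Plagl1, Ndn, Impact and Sgce) were followed across 19 mouse microarrays. They were chosen by name, with their signals on these arrays already known, and the C2C12 difference in particular served to choose them. Their C2C12 values are therefore a description without a test, while the comparison of soleus muscles was tested. The array carried 17 probes for these 9 genes, of 41174 probes and 27793 genes in all.

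There were 4 groups. C2C12 is a mouse myoblast line, and the 6 arrays called WT came from C2C12 cells stably transfected with the empty pIRES neo3 and pIRES hyg3 plasmids. The 6 arrays called HDAC4&5 came from C2C12 cells carrying the same plasmids with wild-type human HDAC4 and HDAC5, which are class IIa histone deacetylases. Both lines were grown under hygromycin B and geneticin at 500 µg/ml and harvested 48 h after seeding at about 80% confluency, and whether each line was a pool or 1 clone is not given in the sources used here. The muscle groups were whole soleus of male C57BL6J mice aged 12 weeks and fasted for 5 h, with 3 heterozygous controls (Con, db -/+) and 4 obese db/db animals (db +/+), which carry the leptin receptor mutation in every tissue. In such bulk samples, fewer cells of a type and less RNA per cell cannot be told apart.

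An imprinted gene is expressed mainly from the copy inherited from 1 parent, and imprinted genes lie in clusters in which differentially methylated DNA decides which copy is read. Many of them set the growth of the fetus, and several are active in developing and regenerating muscle. H19 is a non-coding RNA read from the maternal chromosome next to the paternally expressed growth factor gene Igf2, and it is also the host transcript of miR-675. The arrays measured total RNA and could not tell the parental copies apart.

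The H19 result rests on the following 2 probes, shown because both read the same transcript and only the first reached the scanner's ceiling. The first lies at chr7:149761769-149761828 and the second at chr7:149762018-149762165 (mm9, minus strand). The second covers 148 bases of genome with 60 bases of probe, so its genomic match is interrupted. CG dinucleotides would be in capitals, and neither probe holds one.
A_51_P142196: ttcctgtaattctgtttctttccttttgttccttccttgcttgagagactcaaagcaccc
A_52_P571350: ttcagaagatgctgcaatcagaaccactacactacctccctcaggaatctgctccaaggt

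Of the other members, the probes of Peg3 at chr7:6660440-6660499 on the minus strand and of Ndn at chr7:69493847-69493906 on the plus strand (mm9) are shown as one that was lower and one that was higher in HDAC4&5 cells. Capitals mark CG dinucleotides.
Peg3 A_51_P206037: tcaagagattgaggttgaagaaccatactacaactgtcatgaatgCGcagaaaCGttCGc
Ndn A_52_P451644: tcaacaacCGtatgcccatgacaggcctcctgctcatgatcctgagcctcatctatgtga

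H19 and Mest each host a microRNA, a short RNA that pairs with messenger RNAs mainly through its seed, bases 2 to 8, here in capitals. These RNAs were not measured on the arrays, and the sequences are shown to name what the 2 host transcripts carry. They are RefSeq entries of build GRCm38.p6.
mmu-miR-675-5p: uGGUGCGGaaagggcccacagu
mmu-miR-675-3p: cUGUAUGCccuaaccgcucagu
mmu-miR-335-5p: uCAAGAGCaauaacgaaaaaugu
mmu-miR-335-3p: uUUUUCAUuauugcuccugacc

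Each level below is log2 of the processed signal minus the 75th percentile of its array, so 0 is that percentile and a step of 1 is a 2-fold change. Levels were compared between arrays for 1 probe and not between probes, and the summed signal of a marker list leans on its brighter probes. The 75th percentile was a signal of 564 to 1691 on WT arrays, 494 to 873 on HDAC4&5 arrays, 153 to 555 on Con arrays and 180 to 686 on db arrays. Between 46.8% and 57.5% of spots were well above background on an array, and the number of arrays limits the precision. Every slide of cells held both cell groups (slides 1 to 3, 2 arrays of each), and slides 4 and 5 held both muscle groups, so cells and muscle lay on different slides and no test was made between them.

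Of 10 myoblast markers, 8 were well above background on all WT arrays and 4 on all HDAC4&5 arrays. Of the 10 on the array, 8 were tested and all 8 were lower in HDAC4&5 cells, beside 32.8% of all genes tested. Myod1, the factor that commits cells to muscle, was at 2.70 ± 0.13 (SD, n = 6) in WT and well above background on 0 of 6 HDAC4&5 arrays. The myoblast list's summed signal was 148 to 308 times the array's 75th percentile in WT and 6.50 to 7.96 in HDAC4&5. Myf5 and Pax7 were well above background on none of the 12 C2C12 arrays. The part of this difference between the lines in the values of the imprinted genes was not tested.

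H19 was far lower in HDAC4&5 than in WT cells, with both probes and on every slide. With the first probe, WT arrays ran from 5.13 to 5.88 with a median of 5.76, and HDAC4&5 arrays from -5.28 to -2.82 with a median of -4.66. The lowest WT array was 7.95 log2 units above the highest HDAC4&5 array, and the probe was well above background on all 12. The mean was 5.67 ± 0.28 (SD, n = 6) in WT and -4.25 ± 1.08 (n = 6) in HDAC4&5, a difference of -9.92 or 967-fold. The spot was saturated on 2 of 6 WT arrays, replicates 2 and 3, so the WT level is a lower limit there. With those spots left out the difference was -10.01.

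The second H19 probe was saturated on no array. It ran from 4.38 to 4.67 in WT, with a median of 4.56, and from -5.40 to -3.84 in HDAC4&5, with a median of -5.04. The difference was -9.31, or 636-fold. HDAC4&5 replicates 3 and 4, the arrays of slide 2, were the highest of their group with both probes, at -2.82 and -3.02 with the first and -3.84 and -3.89 with the second. Within slides 1, 2 and 3 the first probe differed by -10.67, -8.38 and -10.70, and the second by -9.93, -8.46 and -9.55.

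**Figure D1:**
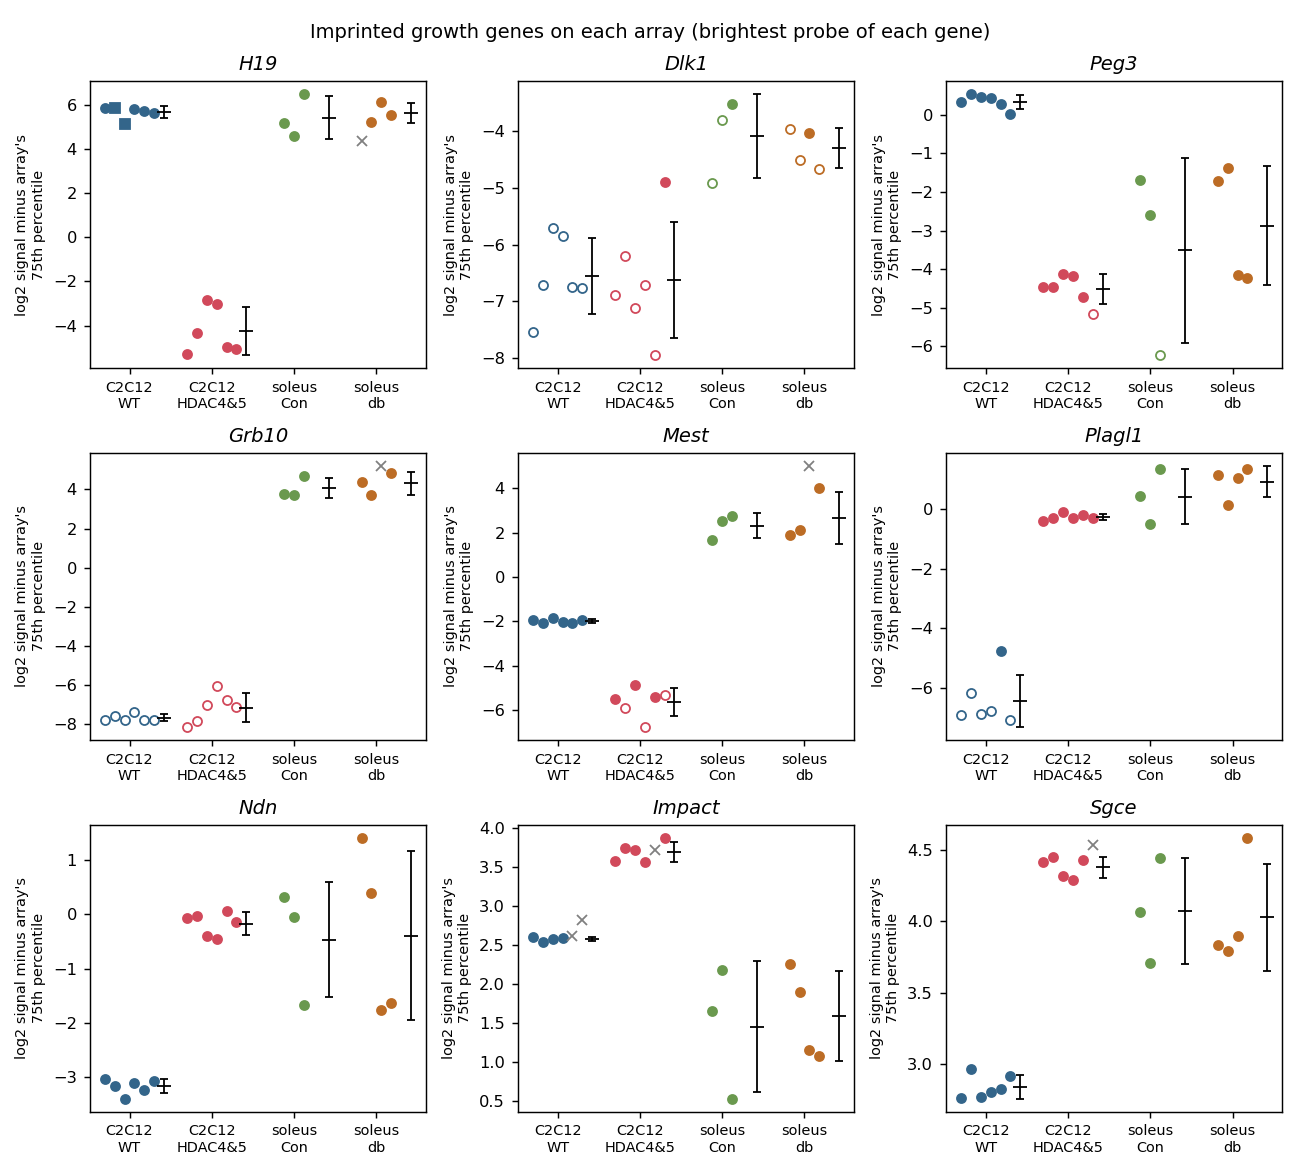
Level of the 9 imprinted genes on each of the 19 arrays (log2 signal minus the array's 75th percentile, 1 probe per gene), with the mean and SD of each group in black beside its points. Filled points were well above background, open points were not, squares were saturated and grey crosses were marked as outliers and left out; the WT arrays of H19 sit between 5.13 and 5.88 and the HDAC4&5 arrays between -5.28 and -2.82, whereas the muscle groups overlap in every panel.

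Peg3 and Mest, both read from the paternal copy, were also lower in HDAC4&5 cells. Peg3 encodes a zinc finger protein. WT arrays ran from 0.02 to 0.53 (median 0.37) and HDAC4&5 arrays from -5.17 to -4.13 (median -4.46), where 5 of 6 were well above background. The difference was -4.86, or 28.9-fold. A second Peg3 probe differed by -5.01, with 1 of 6 HDAC4&5 arrays well above background. The Peg3 probe A_52_P1131620 was well above background on no C2C12 array and could show no difference.

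Mest encodes a protein of the alpha/beta-hydrolase fold. Its single probe ran from -2.09 to -1.86 in WT (median -1.99) and from -6.76 to -4.88 in HDAC4&5 (median -5.46). The groups did not overlap, and 3 of 6 HDAC4&5 arrays were well above background. The difference was -3.64, or 12.5-fold. Within the 3 slides it was -3.68, -3.88 and -3.36.

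Plagl1 (Zac1), Ndn, Sgce and Impact, all read from the paternal copy, were higher in HDAC4&5 cells. Plagl1 encodes a zinc finger transcription factor that restrains the cell cycle. It was well above background on 1 of 6 WT arrays, at -4.75 on replicate 5, and the other WT arrays lay between -7.08 and -6.16. HDAC4&5 arrays lay close together, from -0.40 to -0.09 with a median of -0.29. The measured difference was 6.16, or 71.7-fold, and the WT mean of -6.43 ± 0.88 (n = 6) rests mostly on spots not above background. The second Plagl1 probe was well above background on 0 of 6 WT and 5 of 6 HDAC4&5 arrays. On the scale used here that probe was at least 1.81-fold higher in HDAC4&5, a bound not checked with any other background correction. For it and every "at least" fold here, the dim group was given, array by array, the dimmest signal that still counted as well above background.

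Ndn encodes necdin, a MAGE family protein that binds E2F factors. It ran from -3.39 to -3.04 in WT (median -3.13) and from -0.45 to 0.05 in HDAC4&5 (median -0.11), well above background on all 12 arrays. The difference was 2.99, or 7.94-fold.

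Sgce encodes epsilon-sarcoglycan, a membrane protein of the dystrophin-associated complex. WT arrays ran from 2.76 to 2.96 (median 2.81) and HDAC4&5 arrays from 4.29 to 4.45 (median 4.42, n = 5, since replicate 6 at 4.53 was marked as an outlier). The difference was 1.54 with this probe, or 2.91-fold, and also 1.54 with the second.

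Impact encodes a protein that restrains the stress kinase GCN2 by binding its activator GCN1. It ran from 2.55 to 2.61 in WT (n = 4) and from 3.57 to 3.88 in HDAC4&5 (n = 5), after the outlier spots of WT replicates 5 and 6 and HDAC4&5 replicate 5 were left out. Those spots read 2.62, 2.82 and 3.72, so both groups stayed apart with them included. The difference was 1.11, or 2.16-fold.

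Dlk1, a transmembrane relative of the Notch ligands, and Grb10, an adaptor that dampens signals of the insulin and IGF1 receptors, gave no usable C2C12 difference. None of the 3 Grb10 probes was well above background on any C2C12 array. Of the 2 Dlk1 probes, A_51_P135618 was on none either, and A_52_P177324 on 1 of 12, HDAC4&5 replicate 6, at -4.90.

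Of the 9 members, 7 passed the filter on dim probes in C2C12 cells, which kept a probe seen well above background on all arrays of 1 group or both. All 7 were past an adjusted p of 0.05 (limma, Benjamini-Hochberg), 4 higher and 3 lower, and in all 7 the arrays of the groups did not overlap. Across all 14164 genes tested, 69.3% were past the adjusted p, 36.5% higher and 32.8% lower, and in 54.6% the groups did not overlap. Since the members were chosen with this difference known, and 3 of the 7 passed the filter through 1 group only, nothing is read from that count. Higher genes made up 52.7% of the calls here and 38.2% with the authors' own scaling, under which the median difference of all genes moved from 0.05 to -0.12. No member's C2C12 direction changed under any scaling tried. With normexp background correction the differences of the dimmer genes shrank, to -1.22 for Mest, -3.08 for Peg3 and 3.40 for Plagl1, and that of H19 was -8.24. With the authors' ratios Plagl1 was 4.29. Those ratios left 13477 genes to test, and Igf2 and Ins2, dim in HDAC4&5 cells, were not among them. Plagl1 was well above background on 1 of 6 WT arrays, and how many WT values its 4.29 rests on was not counted.

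**Figure D2:**
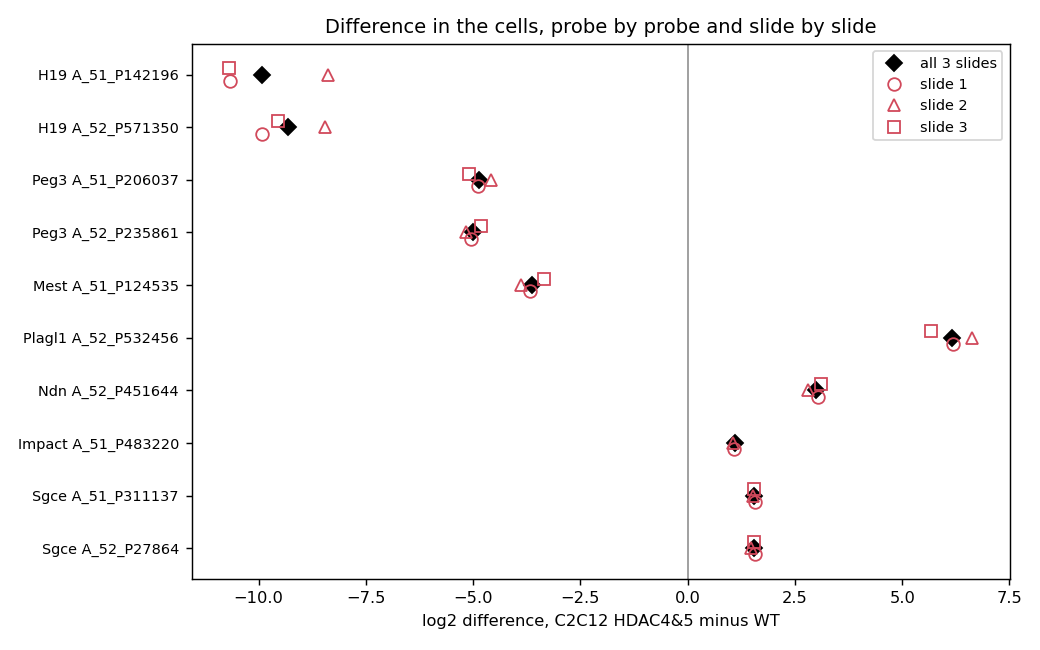
Log2 difference between HDAC4&5 and WT cells for the 10 probes of imprinted genes that passed the filter, over all 3 slides (diamonds) and within each slide (open symbols; slide 3 of Impact had no usable WT spot). Every within-slide difference has the sign of the whole, and the widest gap between slides is that of the first H19 probe, from -10.70 to -8.38.

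The promoters of the members that lay apart are shown for Peg3, Plagl1 and Ndn, the 3 among those 7 for which the reference holds a single promoter. RefSeq's table (GRCm38.p6) held 9 promoters for 6 members, and each stretch below is the 250 bases before the start of the transcript, at chr7:6730420-6730669 on the minus strand for Peg3, chr10:13090582-13090831 on the plus strand for Plagl1 and chr7:62348027-62348276 on the plus strand for Ndn. Capitals mark CG, the dinucleotide that can be methylated.
Peg3: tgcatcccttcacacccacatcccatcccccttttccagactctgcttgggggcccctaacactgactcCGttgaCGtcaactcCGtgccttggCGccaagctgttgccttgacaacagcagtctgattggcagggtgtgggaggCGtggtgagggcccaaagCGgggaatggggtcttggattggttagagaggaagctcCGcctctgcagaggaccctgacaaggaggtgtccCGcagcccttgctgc
Plagl1: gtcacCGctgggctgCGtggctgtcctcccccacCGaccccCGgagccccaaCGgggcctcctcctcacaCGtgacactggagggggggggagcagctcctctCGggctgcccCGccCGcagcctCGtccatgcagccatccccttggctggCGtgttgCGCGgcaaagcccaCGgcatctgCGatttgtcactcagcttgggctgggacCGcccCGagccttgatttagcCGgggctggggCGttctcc
Ndn: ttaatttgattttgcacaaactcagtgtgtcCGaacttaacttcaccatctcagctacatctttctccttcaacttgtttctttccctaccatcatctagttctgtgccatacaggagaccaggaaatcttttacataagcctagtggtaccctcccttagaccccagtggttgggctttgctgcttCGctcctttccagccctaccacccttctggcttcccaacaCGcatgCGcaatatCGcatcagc

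The stretch of Plagl1 held 19 CG dinucleotides, that of Peg3 8 and that of Ndn 5. Over the 32851 promoters of the table the median was 6 with quartiles of 2 and 16, and 92.1% held at least 1. The E-box CAGCTG, a palindrome, was found in none of these 3, while 13% of all promoters held it. One Grb10 promoter had 40 CG dinucleotides, more than 98.7% of all promoters, and 1 of the 3 Mest promoters held CAGCTG once. The methylation of these stretches was not measured here.

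The 4 groups fell into different orders for different members, given by means with no test between cells and muscle. H19 had its highest mean in WT cells with the first probe, which was saturated on 2 WT arrays. With the second probe both muscle means lay above WT, at 4.55 in WT, 4.83 in Con and 5.01 in db. Both muscle groups overlapped WT with either probe, and HDAC4&5 cells stood apart below, with a highest array of -2.82 against a lowest muscle array of 4.58 with the first probe. Peg3 was highest in WT cells, apart from both muscle groups, and with the first probe the muscle groups overlapped HDAC4&5 cells. With the second probe muscle lay apart above HDAC4&5 cells, with a lowest array of -4.927 against a highest of -5.655. That probe was well above background on 1 of 6 HDAC4&5, 1 of 3 Con and 2 of 4 db arrays. Background itself reads higher in muscle on this scale. Phlda2, another imprinted gene, was well above background on no array and averaged -7.47 in HDAC4&5, -5.00 in Con and -4.97 in db. The gap of the second Peg3 probe is therefore not read as a higher level in muscle. Mest ran in the order db, Con, WT and HDAC4&5, with the muscle groups overlapping and every other neighbour apart.

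Grb10 was bright in muscle and at background in both cell groups. Its probe A_52_P115787 read 3.79, 3.73 and 4.67 in Con and 4.36, 3.72 and 4.85 in db, against a highest C2C12 array of -6.06. Plagl1 in HDAC4&5 cells (-0.40 to -0.09) overlapped Con muscle (-0.51, 0.43 and 1.35), whereas WT cells were apart below. Ndn and Sgce in HDAC4&5 cells likewise overlapped the muscle groups, and WT cells stood apart below both for Ndn and for the first Sgce probe. With the second Sgce probe WT cells, from -0.46 to -0.11, overlapped Con muscle, where replicate 2 read -0.61. Impact was higher in both cell groups than in muscle, where the highest array was 2.26. Dlk1 was near background throughout, and well above it on 1 of 3 Con and 1 of 4 db arrays with A_52_P177324 and on 1 of 3 and 2 of 4 with A_51_P135618.

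The neighbourhood of H19 was then read for the genes whose probes lie within 500 kb, since imprinted clusters share control elements. Apart from H19, 16 genes were tested in C2C12 cells, of which 10 were lower in HDAC4&5, 1 was higher and 5 were not past the adjusted p. These 11 of 16 stand beside 69.3% of all genes past it, and the 10 lower beside 32.8%, with a median difference of -0.62 beside 0.05 for all genes. The probes used for Igf2, Ins2, Tspan32, Tnnt3 and 6330512M04Rik passed the filter through WT only, so nothing is read from the count of lower genes or the median. Where both groups had to be well above background, 7 of 12 were past the adjusted p, 1 of them higher, beside 8607 of 12416 genes. Igf2, 74.9 kb away, is the insulin-like growth factor that shares its enhancers with H19. It ran from -2.67 to -2.20 in WT and was well above background on 0 of 6 HDAC4&5 arrays, so that it was at least 7.59-fold lower on the scale used here (limma adjusted p = 1.03e-10). With normexp correction, which adds an offset to every signal, Igf2 differed by -1.12 (limma adjusted p = 0.0128), a smaller change than that bound. Ins2, the second insulin gene, 103 kb away, was at least 9.54-fold lower (limma adjusted p = 4.03e-08), with 0 of 6 HDAC4&5 arrays well above background, and differed by -1.02 with normexp correction (adjusted p = 0.0186).

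Toward lower coordinates, where distances are negative, lie 2 genes of the fast troponin complex, which regulates contraction. Tnnt3, troponin T, at -63.5 kb, went from 1.91 ± 0.07 (SD, n = 6) to -4.74 ± 0.47 (n = 6; limma adjusted p = 1.73e-12), with 4 of 6 HDAC4&5 arrays well above background, and its difference moved from -6.64 to -4.45 with normexp correction. Tnni2, troponin I, at -131.5 kb, went from 4.74 ± 0.10 to -4.11 ± 0.47 (limma adjusted p = 1.33e-13), and its difference moved from -8.84 to -7.18. Between H19 and Tnnt3, Mrpl23, a mitochondrial ribosomal protein gene, differed by only -0.52 (SE 0.09, limma adjusted p = 0.000137). Lsp1, a leukocyte actin-binding protein gene between the troponins, differed by -0.72 (SE 0.10, adjusted p = 2.9e-05). Genes with large and with small differences alternated along this stretch.

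Farther out, Tspan32, a tetraspanin gene at 439.7 kb, was at least 13.4-fold lower (limma adjusted p = 2.49e-12) and differed by -1.43 with normexp correction (adjusted p = 0.00174). R74862 differed by -1.07 (adjusted p = 7.1e-06) and Cd81 by -0.35 (adjusted p = 0.0375). 6330512M04Rik differed by -0.75 (limma adjusted p = 7.07e-05), and its sign turned with normexp correction. Ctsd, the lysosomal protease cathepsin D, was the gene that was higher, by 0.25 (adjusted p = 0.00279), and was not past the adjusted p with normexp correction or with the authors' scaling. Tnni2 and Tnnt3 are also fast muscle markers. All 6 tested of the 8 fast muscle markers and 7 of the 8 slow muscle markers were lower in HDAC4&5 cells, beside 32.8% of all genes. Myh1 and Tnnt3 of the fast list and Tnni1, Tnnt1, Myl2, Myl3 and Myoz2 of the slow list passed the filter through WT only. Nothing is read from these counts. Of 5 fibroblast markers tested, 4 were higher and 1 lower. Of 3 macrophage markers tested, Cd14 was higher by 1.63 and Cd68 differed by -0.42, and Lyz2 was also higher, with 0 of 6 WT and 6 of 6 HDAC4&5 arrays well above background. The part of these markers in the H19 neighbourhood was not tested.

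**Figure D3:**
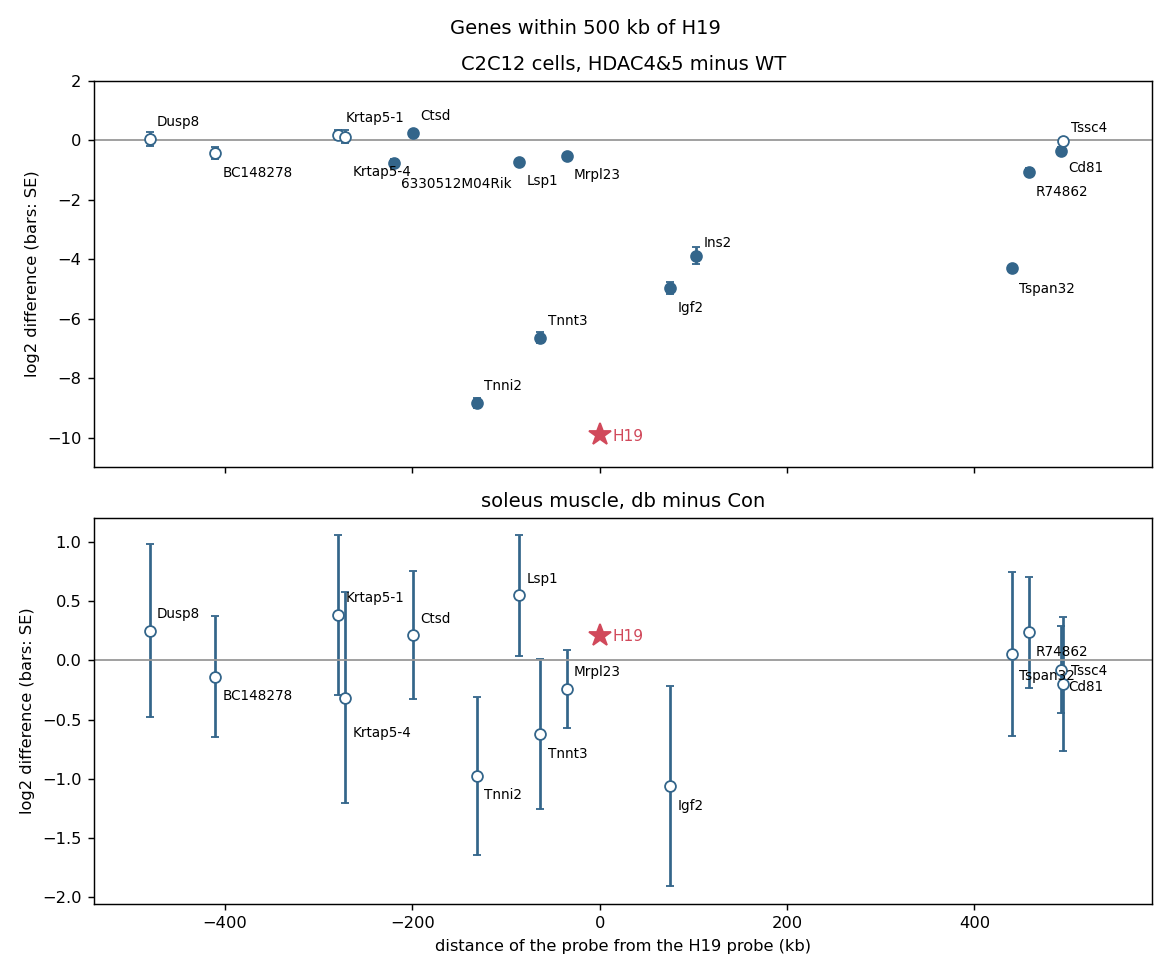
Log2 difference of each gene within 500 kb of H19 against the distance of its probe from the H19 probe in kb, in C2C12 cells (upper panel, 16 genes) and soleus muscle (lower panel, 14 genes, with a narrower vertical axis). Bars are SE, filled points were past an adjusted p of 0.05 and the star is H19; in the cells Tnni2 at -8.84 and Tnnt3 at -6.64 lie on one side and Igf2 at -4.97 and Ins2 at -3.88 on the other, while Mrpl23 at -0.52 lies nearest; Igf2, Ins2 and Tspan32 were well above background on 0 of 6 HDAC4&5 arrays, so their plotted values are neither measured differences nor bounds.

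Other imprinted genes came from a list of 68, of which 61 were on the array. In C2C12 cells 36 were tested, and 28 were past the adjusted p, 10 higher and 18 lower. That share, 77.8%, stands beside 69.3% of all genes, and the median difference of the list was -0.17 beside 0.05 for all genes. Of the 36, 26 were measured in both groups throughout, and 18 of the 26 were past the adjusted p, 9 of them higher. Under that filter 8607 of 12416 genes were past it.

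By measured difference the 5 genes furthest below 0 were Cobl, Igf2, Ddc, Tspan32 and Ins2. Each but Ddc was well above background on 0 of 6 HDAC4&5 arrays, so their order is not known, and with normexp correction Gatm and Dcn, at -2.26 and -1.29, lay below Igf2 and Ins2. Cobl, an actin nucleator gene, was at 0.43 ± 0.04 (n = 6) in WT and at least 56.4-fold lower in HDAC4&5 (limma adjusted p = 1.11e-11), and differed by -3.30 with normexp correction (adjusted p = 1.57e-06). Ddc, which makes dopamine and serotonin, went from -0.92 ± 0.10 to -5.47 ± 0.39 (n = 6; limma adjusted p = 1.42e-11), where 3 of 6 HDAC4&5 arrays were well above background, and differed by -2.10 with normexp correction. Cobl and Ddc flank Grb10, which gave no C2C12 signal itself.

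Among the genes tested and on the scale used here, the 5 largest rises were those of Peg12, Igf2r, Pon3, Kcnq1 and Kcnq1ot1. Sfmbt2, at 1.13 here, lay above Kcnq1 with normexp correction (0.911 and 0.901) and with the authors' scaling (0.952 and 0.946). Peg12 ran from -2.05 to -1.65 in WT and from 0.02 to 0.33 in HDAC4&5, a 4.03-fold rise (limma adjusted p = 8.18e-11). Igf2r, the receptor that clears IGF2 from the cell surface, ran from 0.12 to 0.48 in WT and from 1.93 to 2.29 in HDAC4&5, a 3.52-fold rise (adjusted p = 3.4e-10). Pon3, a paraoxonase gene, rose by 1.53 (SE 0.05, limma adjusted p = 2.68e-11). Kcnq1, a potassium channel gene well above background on 3 of 6 WT arrays, and Kcnq1ot1, the non-coding RNA antisense to it, rose by 1.35 (adjusted p = 1.79e-07) and 1.29 (adjusted p = 1.55e-07), and whether the probe of each reads only its own strand was not tested. Cdkn1c, a cell cycle inhibitor, Meg3, the maternal non-coding RNA beside Dlk1, and Phlda2, a brake on placental growth, were well above background on 0 of 12 C2C12 arrays.

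Neighbours of the members did not all move with them. In the Peg3 cluster, Usp29 differed by -2.35 (SE 0.35, limma adjusted p = 5.34e-05), with 1 of 6 HDAC4&5 arrays well above background, and by -0.22 with normexp correction (adjusted p = 0.589). Zim1, at least 1.40-fold lower (limma adjusted p = 1.38e-07), turned its sign with normexp correction. In the Ndn cluster, Peg12 and Atp10a (0.66, SE 0.08, limma adjusted p = 1.03e-05) rose, and Snrpn, Snurf and Ube3a were at 0.03, -0.04 and 0.06 and not past the adjusted p. Beside Sgce, Pon3 rose, Pon2 was at -0.12 (limma adjusted p = 0.145), and Asb4, at least 1.83-fold lower, turned its sign with normexp correction. Copg2, beside Mest, was at -0.09 (limma adjusted p = 0.327).

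**Figure D4:**
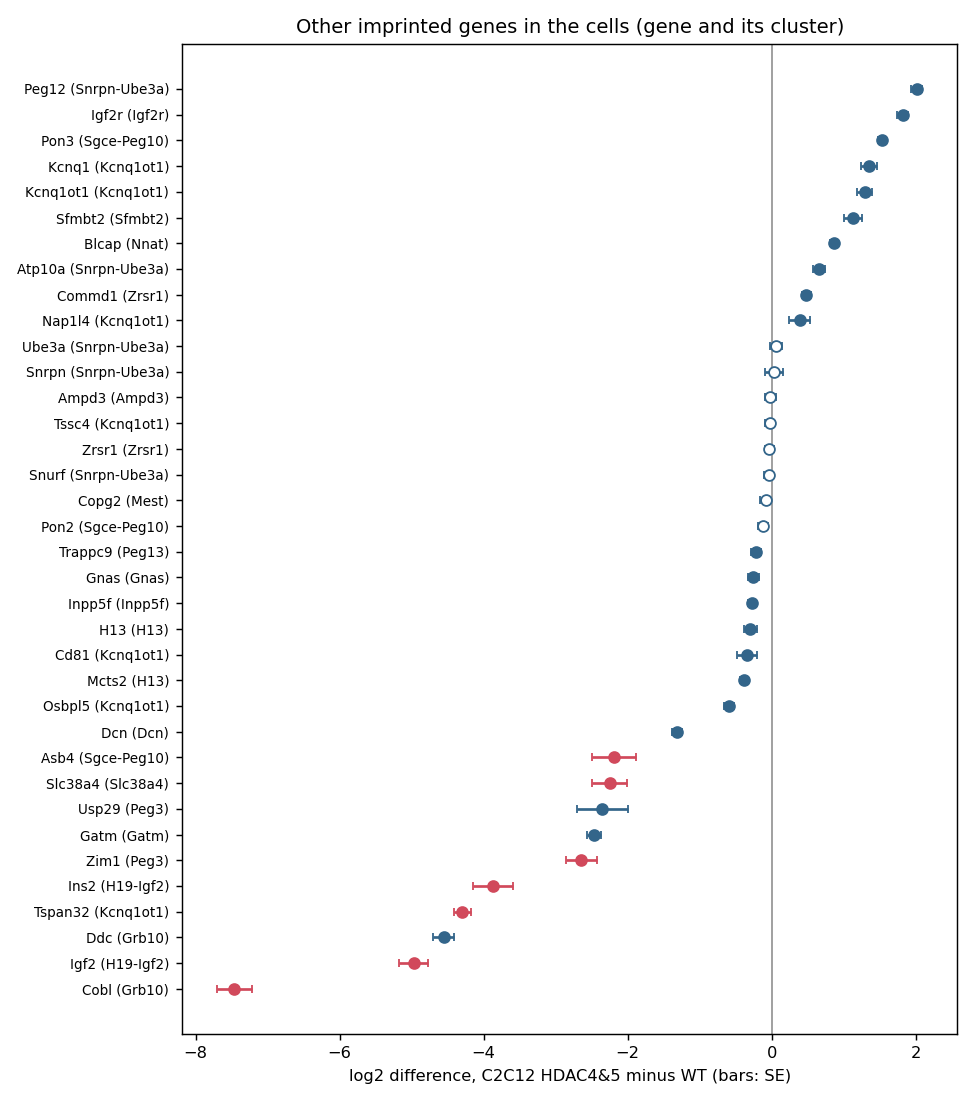
Log2 difference between HDAC4&5 and WT cells, with SE, for the 36 other imprinted genes tested, each with its cluster in parentheses. Filled points were past an adjusted p of 0.05 and red points were well above background on 0 of 6 HDAC4&5 arrays, so their value is not a bound; the values run from -7.46 for Cobl to 2.01 for Peg12.

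To examine whether these genes also differed in muscle of obese mice, db soleus was compared with Con. Of the 9 members, 8 passed the filter, 1 of them, Peg3, through the db group only, and Dlk1 did not. None of the 8 was past the adjusted p with limma, and 0 of the 8 had an unadjusted p under 0.05. Across all 13107 genes tested 0.00763% were past the adjusted p and 6.36% had an unadjusted p under 0.05. With the slide as a block 0.305% of all genes were past the adjusted p and the count of members was again 0.

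H19 read 5.20, 4.58 and 6.49 in Con and 5.22, 6.11 and 5.56 in db, with db replicate 1 left out as an outlier at 4.34. The groups overlapped, and the difference was 0.21 (95% interval -1.08 to 1.49, limma adjusted p = 0.989). The second H19 probe kept all arrays and read 5.12, 3.98 and 5.40 in Con and 5.60, 4.85, 5.21 and 4.37 in db, a difference of 0.18 (exact permutation test, two-sided p = 0.743). The 3 against 4 arrays of this design allow no exact two-sided p under 0.0571, and 3 against 3 none under 0.1. Within slides 4 and 5 the first probe differed by 0.33 and -0.65, and with the slide as a block its difference was -0.16 (limma adjusted p = 0.826).

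Peg3 read -1.70, -2.60 and -6.23 in Con and -1.72, -1.38, -4.16 and -4.24 in db. The arrays of slide 5, Con replicate 3 and db replicates 3 and 4, were the low ones of each group. The difference was 0.64 (95% interval -2.10 to 3.37, limma adjusted p = 0.98), 0.61 within slide 4 and 2.03 within slide 5. With the slide as a block it was 1.17 (limma unadjusted p = 0.0136, adjusted p = 0.182). The Con array of slide 5 was not well above background for Peg3.

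Ndn showed the same split by slide, at 0.32, -0.04 and -1.67 in Con and 1.41, 0.39, -1.76 and -1.62 in db. The difference was 0.07 (95% interval -1.92 to 2.06, limma adjusted p = 0.995). Impact read 1.66, 2.19 and 0.54 in Con and 2.26, 1.90, 1.16 and 1.08 in db, again lowest on slide 5, with a difference of 0.14 (interval -0.98 to 1.25, limma adjusted p = 0.992). Mest went the other way on slide 5, at 1.66, 2.53 and 2.76 in Con and 1.87, 2.11 and 4.02 in db, with replicate 3 of db left out as an outlier at 5.00. Its difference was 0.35 (interval -1.15 to 1.85, limma adjusted p = 0.979).

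The difference of Grb10 was 0.24 with A_52_P115787 (95% interval -0.78 to 1.27, limma adjusted p = 0.978), where db replicate 3 was left out as an outlier at 5.21. A second Grb10 probe, well above background on all 7 muscle arrays, differed by -0.21 (exact permutation test, two-sided p = 0.743). Plagl1 read 0.43, -0.51 and 1.35 in Con and 1.15, 0.15, 1.06 and 1.33 in db, a difference of 0.50 (interval -0.64 to 1.64, limma adjusted p = 0.954). Sgce differed by -0.04 (interval -0.81 to 0.72, limma adjusted p = 0.995). The narrowest of these intervals, that of Sgce, still holds differences from -0.81 to 0.72, so differences within it were not excluded by this fit. The slide block, which these intervals leave out, gave 0.45 for Ndn and 0.33 for Impact (limma adjusted p = 0.483 and 0.484).

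**Figure D5:**
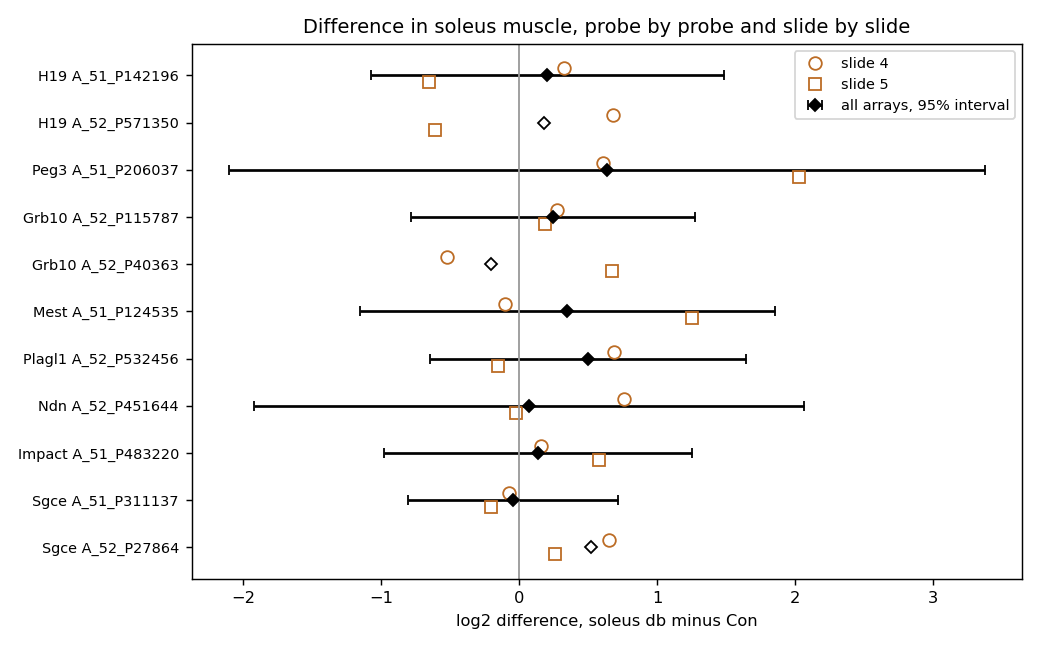
Log2 difference between db and Con soleus for the 11 probes of imprinted genes that passed the filter. Filled diamonds with bars are the difference and its 95% interval from limma for the probe that stood for each gene, open diamonds are further probes, and circles and squares are the differences within slides 4 and 5; every interval holds 0, and the slides differ in sign for both H19 probes, the second Grb10 probe, Mest, Plagl1 and Ndn.

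Of the other imprinted genes, 39 were tested in soleus. None was past the adjusted p with limma, and 4 of 39 had an unadjusted p under 0.05, beside 6.36% of all genes. The 14 genes tested within 500 kb of H19 were not past the adjusted p either, the lowest of which was 0.947. The median difference of the list was -0.08, beside -0.02 for all genes. The 3 smallest unadjusted p were those of Slc22a2, Slc38a4 and Calcr.

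Slc22a2, an organic cation transporter gene, read -0.29, -0.57 and -1.30 in Con and 1.48, 2.96, 1.26 and 2.20 in db, with no overlap and a difference of 2.69 (SE 0.48, limma adjusted p = 0.232). Slc38a4, an amino acid transporter gene, read 2.19, 2.57 and 2.52 in Con and 1.38, 1.14, 1.31 and 0.93 in db, a difference of -1.24 (SE 0.27, adjusted p = 0.36). Calcr, the calcitonin receptor and a marker of resting muscle stem cells, read -2.12, -1.22 and -2.52 in Con and -4.19, -3.12, -5.31 and -5.20 in db, where 1 of 4 arrays was well above background, a difference of -2.50 (SE 0.59, adjusted p = 0.417). With the slide as a block their adjusted p were 0.0538, 0.0713 and 0.063.

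Igf2 read 1.34, 2.05 and 3.67 in Con and 1.08, 0.09 and 2.72 in db, with db replicate 3 left out as an outlier at 3.56, and its difference was -1.06 (SE 0.84, limma adjusted p = 0.947). Igf2, Meg3 and Cdkn1c were well above background on all 7 muscle arrays. Meg3 differed by -0.87 (SE 0.39, limma adjusted p = 0.791), Cdkn1c by -0.41 (SE 0.65, adjusted p = 0.976), and Igf2r by -0.59 (SE 0.55, adjusted p = 0.953, n = 2 in each group after outliers). Both db arrays left for Igf2r lay on slide 4 and the Con arrays on 1 slide each, and with the slide as a block its difference was -0.03 (limma adjusted p = 0.977). Phlda2 was well above background on 0 of 7. Of the cell type markers, none was past the adjusted p in muscle. The summed signal of 7 adipocyte markers was 107 to 176 in Con and 54.6 to 95.9 in db. Cfd and Retn differed by -1.91 and -0.22, whereas Adipoq, Plin1, Cidec and Lep differed by 0.53, 0.72, 1.19 and 3.62, so the sum does not give the direction of the list. Lep was well above background on 1 of 3 Con and 4 of 4 db arrays. The summed signal of 7 fibroblast markers, of which Col1a1, Col3a1, Thy1 and Col1a2 differed by -1.43, -0.88, -0.63 and -0.58 and Pdgfra, Lum and Fbln1 by 0.27, 0.23 and 0.19, was 375 to 480 in Con and 162 to 335 in db, and that of 5 endothelial markers 33.3 to 41.4 in Con and 14.5 to 24.6 in db. None of these lists had a marker below background on all Con or all db arrays. Their part in the muscle values was not tested.

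Over the 19 arrays, the 5 genes whose level was most like that of H19 among 15159 genes were Klhl30 (Pearson r = 0.994 over 17 arrays), Heyl (0.993 over 18), Des (0.993 over 18), Igfbp5 (0.993 over 16) and C230098O21Rik (0.992 over 18). Des encodes desmin, the intermediate filament of muscle and one of the myoblast markers used here, Heyl a Notch target repressor and Igfbp5 an IGF-binding protein. Each was high in WT cells and both muscle groups and low in HDAC4&5 cells. Des, for example, averaged 5.87 in WT, -2.58 in HDAC4&5, 6.20 in Con and 6.77 in db. These correlations describe 4 groups whose arrays share lines, tissue and slides and are not independent points.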

How the data were processed

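RNA (100 ng) of 12 C2C12 samples and 7 soleus muscles was labelled with Cy3 and hybridised to 1-colour Agilent mouse arrays, 1 per sample. Per the file headers, the authors deposited scanner intensities from Agilent Feature Extraction 9.5.1.1, among them processed signals with the local background removed and no scaling across arrays. A second deposited file gives each intensity as a ratio to 1 constant per array (column medians 0.98 to 1). Within 0.01 on the log2 scale, 13 of its 19 columns were proportional to their own array and 2 db columns to another db array, so it served by group only. The deposited intensities were put on the log2 scale here, after which the 75th percentile of the array was subtracted. Saturated spots stayed in, while controls and spots that the scanner software called outliers did not.

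Gene names and coordinates (mm9) are those of the files, and names other than those of the members were brought up to date through RefSeq (27198 probes matched, 2694 symbols changed). A probe was kept where it was well above background throughout 1 group or both, and the probe with the highest mean over the 19 arrays stood for its gene. WT and HDAC4&5, and Con and db, were compared separately with limma 3.58.1 in R 4.3.3 across all genes, at a Benjamini-Hochberg adjusted p of 0.05. The steps were tested on simulated data. Alternatives were quantile and normexp processing, the authors' ratios, other filters, all probes averaged, saturated spots left out, slide and replicate blocks, leaving out each array, and the test the methods name.

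The members and lists were chosen with earlier results of these data known. Named were all members, Igf2, Igf2r, Cdkn1c, Meg3 and Phlda2, the 5 largest rises and 5 largest falls of other imprinted genes in C2C12 cells, the 3 smallest p in soleus, up to 12 genes past the adjusted p within 500 kb of H19, the 5 genes most like H19, and markers. Genes of the members' own clusters were named in addition, after their values were seen.

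Nothing says which C2C12 arrays came from separate dishes, and the study's methods give 3 biological replicates per group, so p-values there measure only the spread between arrays, which may be technical. Replicate numbers are shared between groups. Same-numbered arrays deviated together (correlations of 0.314 to 0.683 over 6 C2C12 pairs and 0.492 to 0.752 over 3 soleus pairs). Each such pair lay on 1 slide, as did differently numbered pairs with correlations of 0.362 to 0.703 and 0.417 to 0.81.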

Additional observations from a re-analysis of the deposited data

Results flagged for a closer look

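Of 23 groups of 4 to 6 usable arrays in which a member's probe was well above background throughout, 2 held an array far from the others, where chance gives about 1 in 20, or 1.15. WT replicate 3 read 5.13 for H19 with the first probe, below the other WT arrays, and its spot was saturated. The second H19 probe read 4.52 there, inside the WT range. The db replicate 4 read 4.58 for Sgce, above the other db arrays, and lay on slide 5.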

How the results depend on the processing

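The count of members past the adjusted p was 0 in soleus under every alternative. No such count is read in C2C12 cells, since the members were chosen with their difference there known. Where both groups had to be well above background, fewer genes were left to test in C2C12 cells. Then 18 of 26 other imprinted genes and 7 of 12 genes near H19 were past the adjusted p, beside 8607 of 12416 genes. Leaving out 1 array gave 26 to 28 of 36 other imprinted genes and 10 to 12 of 16 genes near H19, beside 9531 to 9777 genes in all. Normexp correction gave 22 of 36 and 9 of 16, beside 7340 of 14164 genes. The authors' ratios gave 19 of 29 and 8 of 13, beside 7238 of 13477. The replicate block gave 28 other imprinted genes and 12 near H19, beside 10761 of 14152 genes. The slide block gave 29 and 12, beside 10894 of 14162. In soleus, the methods' test without adjustment called 4 of 38 other imprinted genes, beside 973 of 13051 genes in all, and all other alternatives called 0. No C2C12 difference of a member changed sign. In soleus, none passed the adjusted p under any alternative (lowest 0.182, Peg3 with the slide block) and signs turned, of which the cause was not tested. H19 was -0.14 with quantile normalization, -0.091 with the authors' ratios, -0.16 with the slide block, -0.65 within slide 5 and -0.22 to 0.74 with 1 array left out. Peg3 was -0.12 with normexp, -0.33 with the authors' ratios and -0.72 to 1.54 with 1 array left out. Grb10 was -0.62 with all probes averaged and -0.026 to 0.55 with 1 array left out. Mest was -0.10 with the replicate block and within slide 4, and -0.33 to 0.75 with 1 array left out. Plagl1 was -0.16 within slide 5. Ndn was -0.035 with normexp, -0.02 within slide 5 and -0.53 to 0.52 with 1 array left out. Impact was -0.14 with normexp and -0.32 to 0.50 with 1 array left out. Sgce was 0.077 with normexp, 0.32 with the authors' ratios, 0.62 with all probes averaged and -0.23 to 0.14 with 1 array left out. Signals near background limit Peg3, Mest and Plagl1 in the dim cell line and Dlk1 everywhere.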

Other observations

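Some further imprinted genes were named after their values were seen. Gatm, which makes the precursor of creatine, fell from 1.57 ± 0.14 (SD, n = 6) in WT to -0.90 ± 0.20 (n = 6) in HDAC4&5 cells (limma adjusted p = 6.89e-11), and Dcn, the matrix proteoglycan decorin, fell from 1.72 ± 0.12 to 0.40 ± 0.10 (adjusted p = 9.36e-10). Slc38a4 was well above background on 6 of 6 WT and 0 of 6 HDAC4&5 arrays (limma adjusted p = 2.12e-06), but its difference was -0.07 with normexp correction (adjusted p = 0.873), so no fold is given. Sfmbt2, a Polycomb group gene, rose by 1.13 (SE 0.12, limma adjusted p = 2.55e-06). Airn, the non-coding RNA antisense to Igf2r, was well above background on 0 of 6 WT and 4 of 6 HDAC4&5 arrays, and Mkrn3, a zinc finger gene of the Ndn cluster, on 0 of 6 and 5 of 6. Neither was tested, and on the scale used here they were at least 1.92-fold and 2.54-fold higher in HDAC4&5. These 2 bounds were not checked with normexp correction, under which Asb4, with a bound of 1.83-fold, turned its sign.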
